A study of Mus musculus with 12 samples.

Results

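The tensin genes Tns1, Tns3 and Tns4 were followed across 6 mouse tumour-derived cell lines, using every probe that the array's annotation gives to them. These are 3 of 17711 named genes and 6 probes of 46632 in all, with 1 probe for Tns4, 3 for Tns3 and 2 for Tns1. The arrays are Illumina bead arrays, on which labelled copies of total RNA bind to gene-specific probes. The lines compared were 3 lines labelled as carrying constitutively active STAT3 and 3 lines labelled as carrying wild-type STAT3, with 2 arrays for each line and 12 arrays in all. All lines were grown in the same serum-containing medium without treatment. The labels name no tissue, strain, age or sex, and leave unsaid whether the lines arose in separate tumours and whether RNA for both arrays of a line was taken from separate cultures. The study is known to concern mammary tumours driven by the Neu oncogene and the place of Tns4 in them, so Tns4 was not chosen independently of these data.

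Tensins are cytoplasmic proteins of focal adhesions, the sites where integrins tie the actin cytoskeleton to the extracellular matrix. Tensins 1, 2 and 3 bind actin through their N-terminal part and the tails of beta integrins through their C-terminal part. Tensin 4, encoded by Tns4 and also called Cten (C-terminal tensin-like), has the C-terminal part with its SH2 and PTB domains but lacks the actin-binding part. In cultured human mammary epithelial cells, EGF is known to lower TNS3 and raise TNS4, an exchange linked to cell migration. STAT3 is a transcription factor switched on by cytokine and growth factor receptors. STAT3 binds DNA as a dimer, and constitutively active forms are altered so that they act without the usual upstream signal.

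Between 11002 and 12798 probes were detected per array (detection p under 0.01), and 7306 genes passed the filter on dim probes and were tested. A probe not detected has a signal that does not stand above background at that threshold. Across genes, both arrays from 1 line had a Pearson correlation between 0.993 and 0.998. The transcript of Stat3 averaged 12.17 ± 0.63 in constitutively active lines and 12.66 ± 0.21 in wild-type lines on the log2 scale (SD, n = 3 lines each; limma adjusted p = 0.898), and its probes are not known here to tell the altered from the normal allele. Of 9 markers of luminal and simple epithelium 7 were detected on all 12 arrays, among them Krt8 and Krt18, and Epcam was detected on none. Of 5 leukocyte markers on the array 1 was detected on all 12 arrays and 4 on none (Ptprc, Cd3e, Itgam and Adgre1). The linear signal summed over all 5, the detected marker included, ran from 3470 to 10093 in constitutively active lines. In wild-type lines it ran from 4057 to 7225. The sums given here were not split by marker. Of 5 endothelial markers 1 was detected on all arrays and 4 on none (Pecam1, Cdh5, Tek and Emcn). Sums over all 5 were 526.65 to 660.7 in constitutively active and 465.35 to 567.25 in wild-type lines. Of 8 markers of fibroblasts and mesenchyme 2 were detected on all arrays and 5 on none (Col1a2, Col3a1, Pdgfrb, Dcn and Lum). Summed over all 8, detected markers included, the linear signal ran from 4469 to 9954 in constitutively active lines and from 3109 to 5959 in wild-type lines. The number of arrays limits the precision of these values.

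Tns4 had the largest estimated fold change of all 7306 genes tested, though the wild-type side of that estimate was undetected. It was higher in every constitutively active line than in any wild-type line. On the linear scale of the scanner its signal was 192.4 and 165.6 in constitutively active line 1, 573.1 and 404.7 in line 2, and 5563.0 and 5409.0 in line 3, against 72.2 and 79.7 in wild-type line 1, 103.1 and 86.1 in line 2, and 130.5 and 124.1 in line 3. The constitutively active arrays all lay above the wild-type arrays, with line 3 far above the rest. The median probe of an array read between 70.1 and 86.5, so that the wild-type signals sat at or slightly above the level of undetected probes. After normalization the line means of Tns4 were 6.75, 8.28 and 12.45 in constitutively active lines 1, 2 and 3, and 4.86, 5.53 and 6.09 in wild-type lines 1, 2 and 3 (log2 signal, SD over the arrays of a line between 0.04 and 0.51). The spread over lines was thus wider among constitutively active lines (9.16 ± 2.95) than among wild-type lines (5.49 ± 0.62; SD, n = 3 lines each). The wild-type values were all undetected, and their spread depended on the processing. Their range was 1.23 log2 units here, 0.69 with an offset of 50 and 0.43 with the authors' deposited log2 values. The constitutively active range was 5.70, 5.29 and 4.61 in the same settings.

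**Figure D1:**
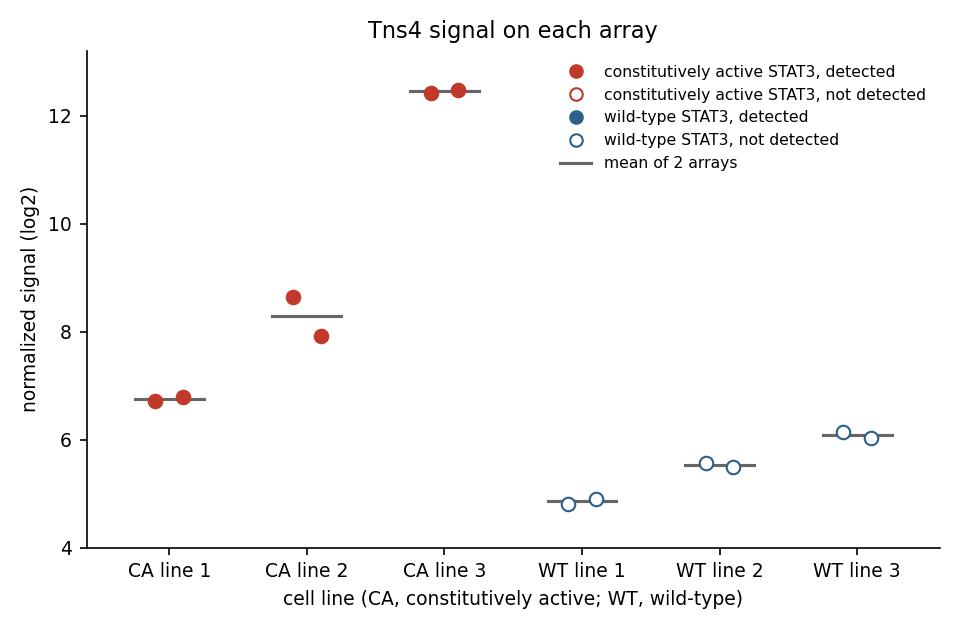
Normalized Tns4 signal (log2) on each of the 12 arrays, grouped by cell line; filled points are detected (detection p under 0.01), open points are not, and the bar is the mean of the 2 arrays of a line. All 6 arrays of constitutively active lines are filled and lie above the 6 open points of wild-type lines, and constitutively active line 3 stands near 12.45.

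The difference between genotypes was 3.67 on the log2 scale, with a 95% interval from 0.22 to 7.12, and it did not pass the threshold across all genes (unadjusted p = 0.0406, limma adjusted p = 0.854). None of the 7306 genes passed (0%), while 2.03% were higher and 3.59% lower at an unadjusted p under 0.05. Tns4 ranked 324th by p and 1st by fold change. It met the filter on dim probes only through the constitutively active lines, so its test and ranks are those of a gene kept for its bright group, and without that filter the unadjusted p was 0.0585 (limma adjusted p = 0.704). The genes next in size of fold change were Abhd16a at 3.29, Cavin3 at 2.60, Tnfaip2 at 2.59 and Igfbp4 at 2.44. Because no wild-type array detected Tns4, its fold has only a lower bound, at least 8.21-fold, and bounds here hold only for the background correction used. The log2 difference was 2.29 with the authors' deposited log2 values and 2.80 without background correction. Its size rested largely on constitutively active line 3. Without that line the log2 difference was 2.03 (limma adjusted p = 0.671), and Tns4 ranked 7th by fold change. It ranked 2nd when any 1 wild-type line was left out, and also with every kept probe. Lines of the genotypes did not overlap, higher in constitutively active lines, for 5.97% of all genes tested, Tns4 among them, and lower for 6.47%.

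**Figure D2:**
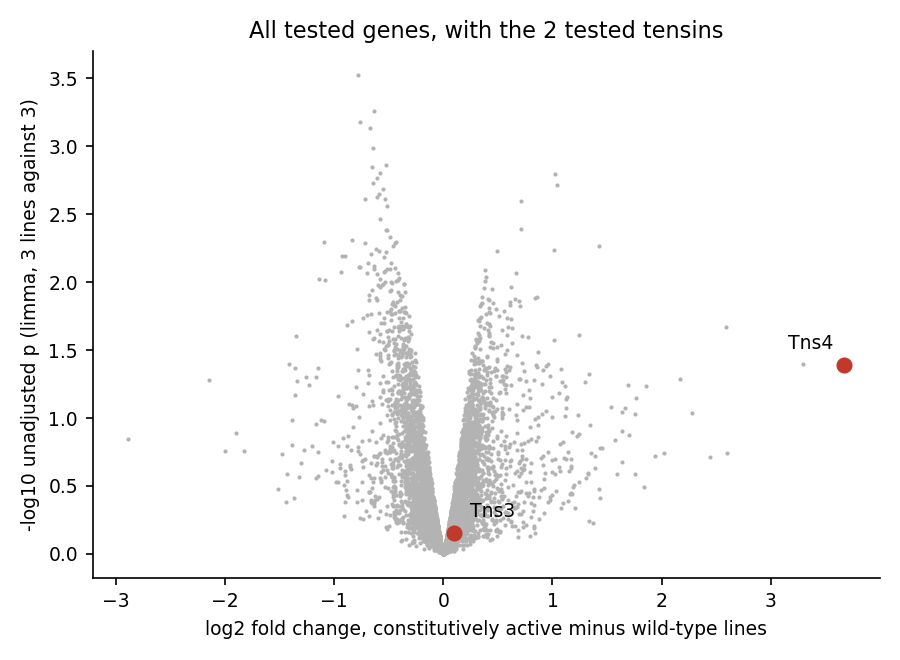
Each point is 1 of 7306 tested genes, with the log2 fold change of constitutively active minus wild-type lines on the horizontal axis and the negative log10 of the unadjusted limma p on the vertical axis. Tns4 lies farthest to the right, at 3.67, and Tns3 near 0, at 0.10, while many genes with smaller fold changes reach smaller p.

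Few probes shared the detection pattern of Tns4. Across the array 3 probes (0.00643%) were detected on all constitutively active and no wild-type arrays, and 5 (0.0107%) showed the converse. The only other named gene among the 3 was 1700084E18Rik, at least 1.30-fold brighter. The named genes of the converse pattern were Usp2, a ubiquitin protease gene, Cenpo, a kinetochore gene, Clcn3, a chloride transporter gene, and the olfactory receptor gene Olfr543, at least 1.08-fold to 1.35-fold brighter in wild-type lines. The pattern of Tns4 depended on where detection was set. Its detection p was 0.00499 and 0.00561 in constitutively active line 1, and between 0 and 0.00062 in lines 2 and 3. Among wild-type lines it was 0.468 and 0.287 in line 1, 0.0237 and 0.0393 in line 2, and 0.0131 and 0.0112 in line 3. At a threshold of 0.05 Tns4 was therefore detected on 4 of 6 wild-type arrays, and at 0.001 on 4 of 6 constitutively active arrays. The faintest constitutively active line and the brightest wild-type line thus lay on either side of the threshold by a small margin.

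The constitutively active lines could be ordered by Tns4, from line 3 to line 2 to line 1, and all lay above the wild-type lines, which are given no order because none was detected. All 15 pairs of lines passed a test against the spread between arrays (limma, adjusted over all genes and pairs), whereas 37.1% of all combinations of a gene and a pair passed. The count includes 3 pairs of undetected wild-type lines. Of these, 2 did not pass with the authors' deposited log2 values, with an offset of 50 or over every probe. Constitutively active line 3 was 18.0-fold above constitutively active line 2 (limma adjusted p = 7.02e-09; 47.7% of genes passed for these lines). Constitutively active line 2 was 2.89-fold above line 1 (limma adjusted p = 3.52e-05; 30.3% of genes passed). The narrowest step across genotypes was that of constitutively active line 1 over wild-type line 3, at least 1.46-fold (limma adjusted p = 0.0101), and 30.2% of genes passed for these lines. With the authors' deposited log2 values it did not pass, at a log2 difference of 0.27 (limma adjusted p = 0.0715). Nor did it pass when tested over every probe of the array (limma adjusted p = 0.0527). Set against the wild-type lines in turn, constitutively active line 2 was at least 4.21-fold to 5.00-fold brighter, and line 3 at least 75.7-fold to 89.8-fold. These bounds depend on the background correction. Constitutively active line 3 exceeded wild-type line 3 by 4.88 on the log2 scale with the authors' deposited log2 values, by 5.45 without background correction and by 5.76 with an offset of 50, each a smaller difference than the bound. Among the wild-type lines no fold is given, since all were below the detection threshold. Among the constitutively active lines the range was 5.70 log2 units, the fifth widest of all genes tested (limma F test, adjusted p = 6.82e-10; 60.9% of genes passed). These tests use the spread between arrays of a line, which may be technical, and do not compare genotypes.

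Tns3, encoding tensin 3, did not differ detectably between genotypes. Its probe ILMN_1247133 was detected on all 12 arrays. The linear signal was 3258.8 and 2791.8 in constitutively active line 1, 2704.1 and 2982.9 in line 2, and 1902.7 and 2010.2 in line 3, against 1539.1 and 1861.2 in wild-type line 1, 2900.6 and 1608.5 in line 2, and 1713.7 and 1778.3 in line 3. The genotypes overlapped. Normalized line means were 11.40, 11.02 and 10.97 in constitutively active lines 1 to 3, and 10.79, 11.52 and 10.79 in wild-type lines 1 to 3. The means were 11.13 ± 0.23 and 11.03 ± 0.43 in constitutively active and wild-type lines (SD over 3 lines). Their difference was 0.10 with a 95% interval from -0.50 to 0.69 (limma adjusted p = 0.970). The sign of this small difference turned when constitutively active line 1 (-0.04), wild-type line 1 (-0.03) or wild-type line 3 (-0.02) was left out.

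The order of the lines by Tns3 was not that of Tns4. Wild-type line 2 was highest, followed by constitutively active lines 1, 2 and 3 and then wild-type lines 3 and 1. With median scaling of the arrays wild-type line 2 was not highest, lying 0.20 log2 units below constitutively active line 1 and 0.07 below line 2. Of the steps between neighbours only that of constitutively active line 1 over line 2 passed, at 1.30-fold (limma adjusted p = 0.00722), and it did not pass with median scaling (log2 difference 0.14, limma adjusted p = 0.725). The others were 1.09-fold for wild-type line 2 over constitutively active line 1, 1.03-fold for constitutively active line 2 over line 3, 1.14-fold for constitutively active line 3 over wild-type line 3, and 1.003-fold for wild-type line 3 over line 1 (adjusted p between 0.136 and 0.973). Of the 15 pairs 8 passed, and 3 with median scaling. The range of Tns3 was 0.42 log2 units among constitutively active lines (limma F test, adjusted p = 0.00316, with 60.9% of genes passing). Among wild-type lines it was 0.74 (limma F test, adjusted p = 4.94e-05, with 46.4% of genes passing). Neither range passed with median scaling (limma F test, adjusted p = 0.232 and 0.118). Over the 6 lines Tns3 and Tns4 correlated at -0.11 (Pearson) and 0.20 (Spearman), which describes these lines only.

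A dimmer Tns3 probe separated constitutively active line 3 from the other lines. Probe ILMN_2491469 read 289.3 and 234.9 in constitutively active line 1, 194.8 and 291.8 in line 2, and 79.7 and 75.5 in line 3, against 127.3 and 155.4 in wild-type line 1, 197.0 and 140.7 in line 2, and 171.3 and 178.7 in line 3. Both arrays of constitutively active line 3 were undetected and all other arrays were detected. In normalized terms line 3 stood at 4.97, against 7.51 and 7.03 in the other constitutively active lines and 6.39, 7.17 and 6.87 in wild-type lines. Its differences from the other 5 lines each passed a test over every probe of the array (limma adjusted p between 2.74e-05 and 0.000931; 9.98% of combinations of a probe and a pair of lines passed). That share takes in undetected probes, and among tested genes 37.1% of combinations of a gene and a pair passed. The line with the most Tns4 signal was thus the one in which this Tns3 probe was not detected, whereas probe ILMN_1247133 did not set that line apart. The genotype difference of probe ILMN_2491469 was -0.30 (limma adjusted p = 0.947 over every probe), and 0.47 without constitutively active line 3. The third Tns3 probe, ILMN_1229466, was detected on no array, with signals between 70.7 and 103.7. Which transcripts of Tns3 each probe reads was not examined here.

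**Figure D3:**
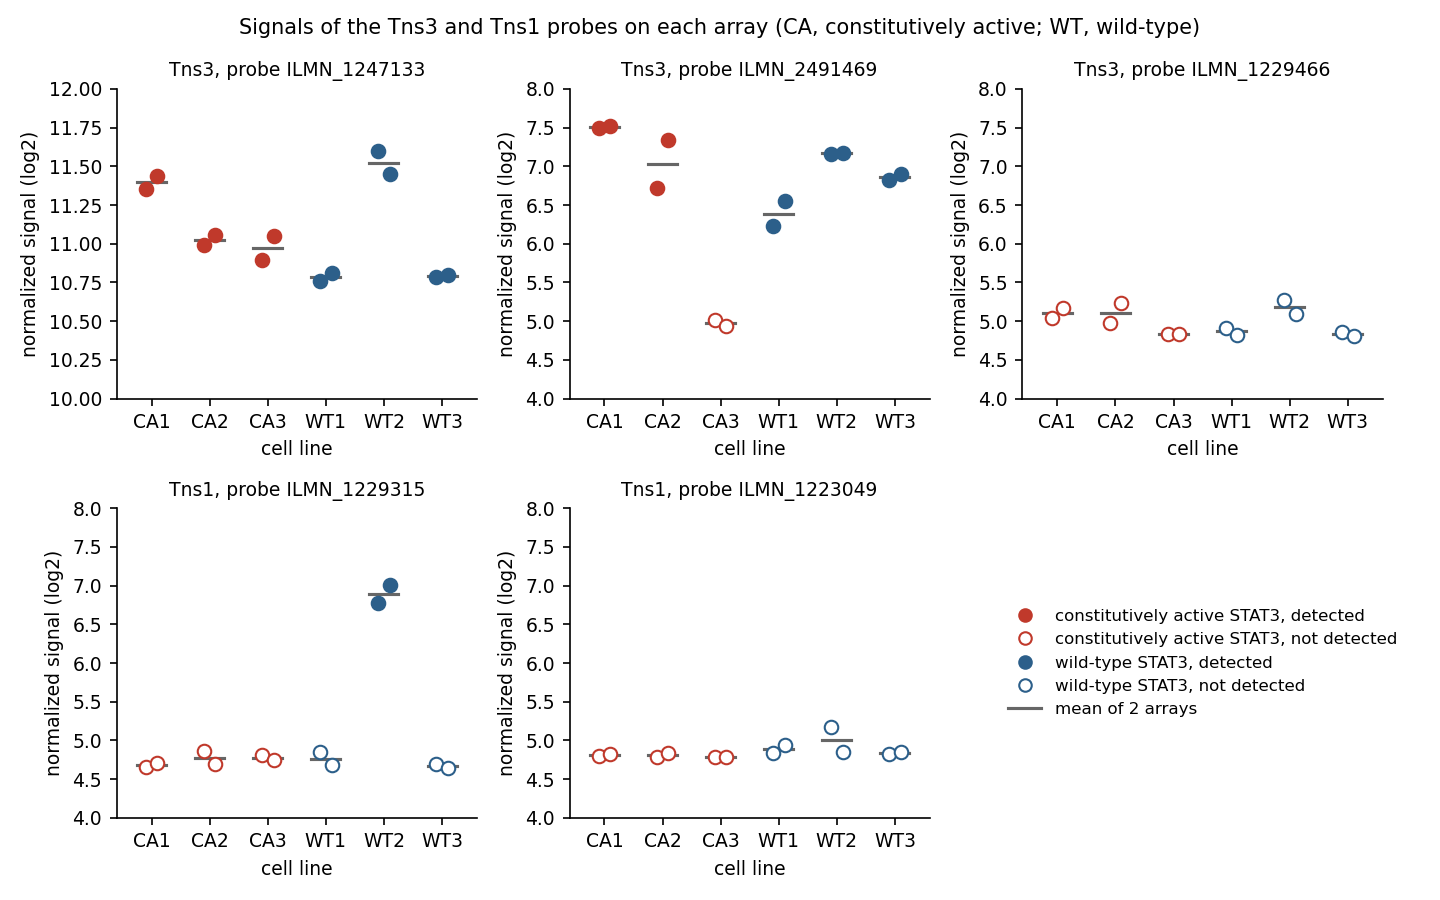
Normalized signal (log2) of the 3 Tns3 probes and the 2 Tns1 probes on each array, by line (CA, constitutively active; WT, wild-type); filled points are detected, open points are not, bars are means of 2 arrays, and the first panel has its own vertical range. In the second Tns3 panel the 2 points of constitutively active line 3 are open, near 4.97, and in the first Tns1 panel the 2 points of wild-type line 2 are filled, near 6.89, with all other points open.

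Tns1, encoding the founding member of the family, was seen in 1 line only. Probe ILMN_1229315 read between 62.7 and 81.8 in constitutively active lines, where no array was detected. Among wild-type lines it read 74.4 and 64.7 in line 1, 164.3 and 132.7 in line 2, and 65.1 and 59.6 in line 3, and only line 2 was detected, on both arrays. Its normalized mean in wild-type line 2 was 6.89 ± 0.17 (SD, n = 2 arrays), and the other 5 lines lay between 4.67 and 4.78. Wild-type line 2 differed from each of them in a test over every probe (limma adjusted p between 1.35e-06 and 1.81e-06). In that test 9.98% of combinations of a probe and a pair of lines passed, undetected probes included. Tns1 missed the filter, which asks for detection in 3 lines, so it was not among the tested genes. The genotype difference over every probe was -0.69 (limma adjusted p = 0.844), and 0.03 without wild-type line 2. The other Tns1 probe, ILMN_1223049, was detected on no array, with signals between 66.8 and 87.3, so the signal in wild-type line 2 rests on a single probe. Wild-type line 2 was also the line with the highest signal of Acta2, the smooth muscle actin gene, a basal marker singled out after its values were seen. Acta2 stood at 8.65, 8.28 and 12.34 in constitutively active lines and at 6.03, 13.94 and 6.93 in wild-type lines 1 to 3. Another basal marker, the keratin gene Krt14, was not highest there, at 11.23, 11.49 and 12.69 in constitutively active lines and at 7.51, 12.25 and 12.42 in wild-type lines 1 to 3. The basal keratin gene Krt17 was highest there, at 6.95, 10.28 and 9.16 in constitutively active lines and at 5.69, 11.15 and 8.24 in wild-type lines. Of the 8 basal and myoepithelial markers 1 was detected on all arrays and 3 (Krt5, Myh11 and Cnn1) on none. The linear signal summed over all 8 ran from 3929 to 12744 in constitutively active lines and from 866.7 to 18610 in wild-type lines. The part of such differences in the tensin signals was not tested.

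Tns2, encoding tensin 2, is the remaining member of the family and was looked at for completeness. Of its 3 probes ILMN_2744164 was detected on 1 of 6 constitutively active and 3 of 6 wild-type arrays, with signals between 111.0 and 155.6 and between 119.2 and 141.9, and the others on none. No Tns2 probe passed the filter.

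Genes whose line means ran most like those of Tns4 were named from the 1491 tested genes whose lines spanned at least 1 log2 unit. The closest were Mbd1 (Pearson r = 0.99 over 6 line means), which encodes a protein that binds methylated DNA, the histone gene H2ac8, the cholesterol sulfotransferase gene Sult2b1, the DNA polymerase gene Pold1, Dock11, the circadian repressor gene Ciart, the autophagy gene Atg9b, and Cd44, the receptor for hyaluronan (r = 0.97). Cd44 stood at 11.19, 11.70 and 12.58 in constitutively active lines 1 to 3, and at 10.89, 11.32 and 11.07 in wild-type lines 1 to 3. Sult2b1 stood at 8.16, 8.82 and 10.20, and at 7.22, 7.98 and 8.10. The most opposite genes were Srr, encoding serine racemase (r = -0.996), the transcription factor gene Zfhx3, Sel1l, of protein degradation at the endoplasmic reticulum, and Itga6, an integrin subunit of laminin receptors (r = -0.97). Itga6 stood at 12.45, 12.10 and 11.30 in constitutively active lines, and at 12.49, 12.50 and 12.27 in wild-type lines. Without constitutively active line 3, over 5 lines, r lay between 0.86 and 0.97 for the alike genes and between -0.98 and -0.83 for the opposite ones. Each of these correlations rests on 6 points that share their arrays and normalization, 3 of them wild-type lines in which Tns4 was not detected, and 14 genes exceeded 0.95 while 14 fell below -0.95.

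**Figure D4:**
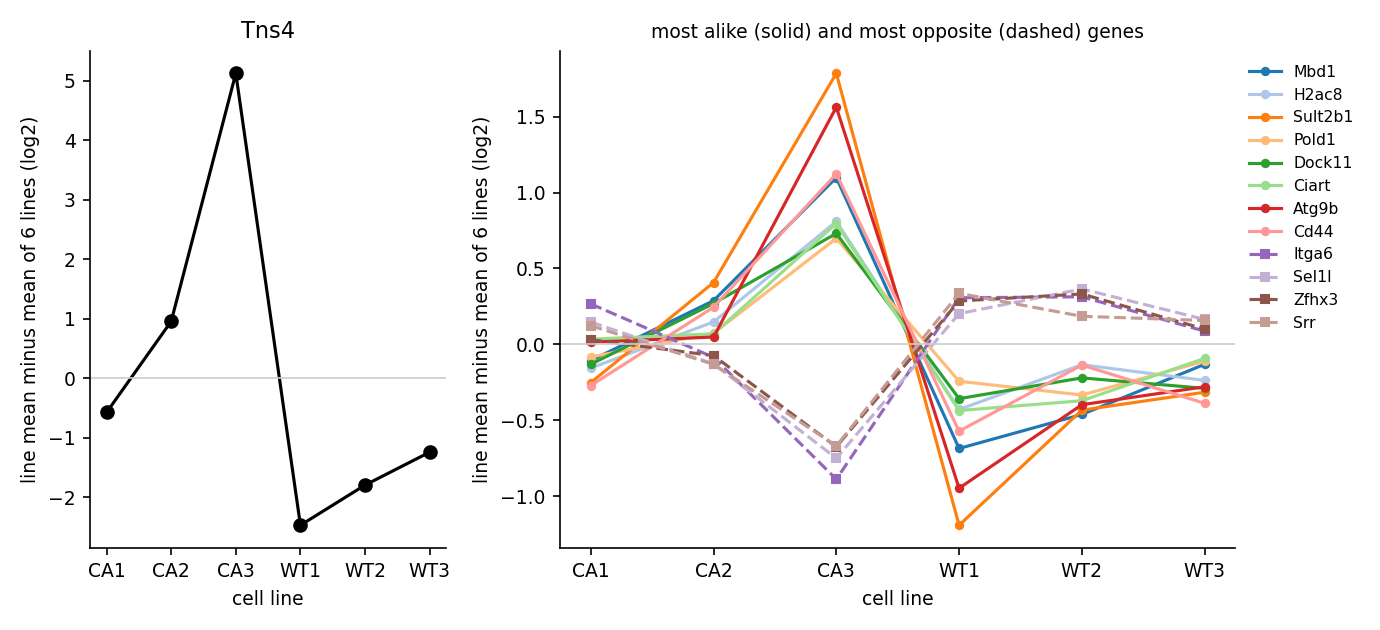
Line means minus the mean of 6 lines (log2) for Tns4, left, and, right, for the 8 genes most like it (solid) and the 4 most opposite (dashed); the vertical scales differ and the joining lines only guide the eye (CA, constitutively active; WT, wild-type). Constitutively active line 3 is the highest point of each of the 8 alike genes and the lowest of each of the 4 opposite genes. This follows largely from choosing them by correlation with Tns4, which is highest in that line.

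The genes most like Tns3 came from 1492 genes by the same rule and were Nek3, a kinase gene (r = 0.97), Ankrd1, encoding an ankyrin repeat protein of stressed muscle, the G protein regulator gene Rgs16, Zfp185, Fhl1, a LIM domain gene of muscle, Tspan6, a tetraspanin gene, the semaphorin gene Sema3c and the proline catabolism gene Aldh4a1 (r = 0.93). Wild-type line 2 was the highest line in 7 of these 8, the exception being Fhl1. This follows largely from the choice by correlation, since Tns3 itself was highest in wild-type line 2 with this normalization. Fhl1 stood at 10.68, 7.36 and 5.88 in constitutively active lines 1 to 3, and at 5.42, 9.82 and 6.18 in wild-type lines 1 to 3. The most opposite were Rhobtb2, Ano9, Bsdc1 and Fbxo44 (r between -0.97 and -0.96).

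Tns4 and Tns3 both lie on mouse chromosome 11 and Tns1 on chromosome 1 in the RefSeq gene table of the GRCm38.p6 assembly, which served for gene order only. The tested genes around Tns4 did not follow it as a block. In constitutively active line 3 Tns4 lay 6.15 log2 units above the mean of the other 5 lines. Igfbp4, whose product binds IGFs, was the nearest tested gene on one side and lay 2.46 above, and the keratin genes Krt19 and Krt14 lay 2.93 and 1.71 above. The keratin gene Krt23 was lower there, at -1.90. The other 6 of the 10 neighbours lay between -0.45 and 0.67. Igfbp4 was not low in wild-type lines as a group, with 10.46, 10.68 and 11.82 in constitutively active lines 1 to 3 and 4.93, 8.80 and 11.91 in wild-type lines 1 to 3. None of the 30 genes neighbouring the 3 tensins passed between genotypes (limma adjusted p between 0.854 and 0.986).

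**Figure D5:**
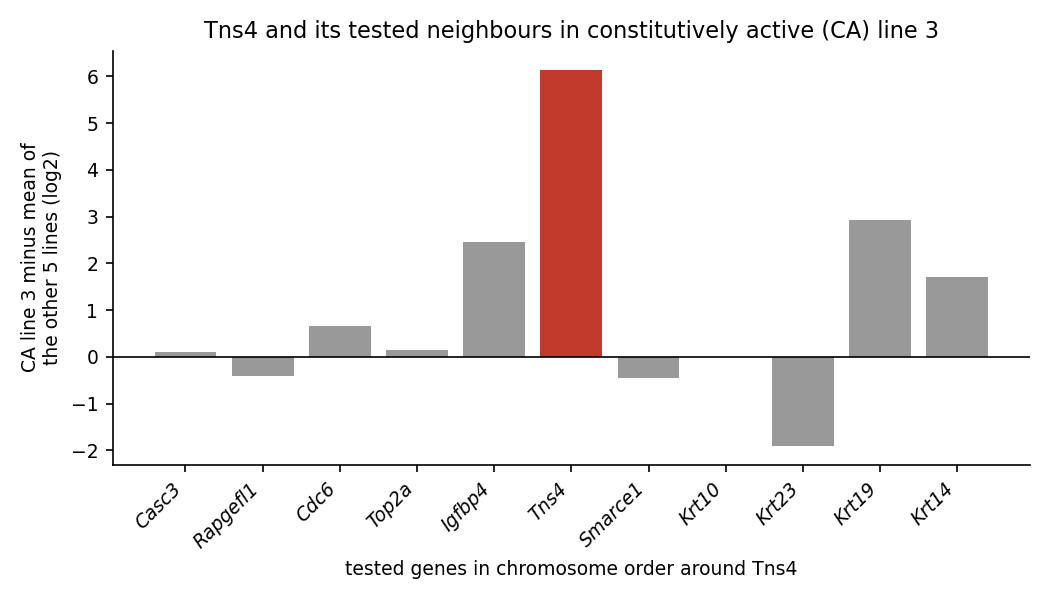
Difference (log2) of constitutively active line 3 from the mean of the other 5 lines for Tns4 and the 5 tested genes on each side of it in chromosome order. The bar of Tns4 reaches 6.15, and its neighbours run from -1.90 for Krt23 to 2.93 for Krt19.

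The partners of the tensins are given by counts and medians. In constitutively active lines, 5 of 10 tested binding partners and regulators had higher means and 5 had lower means, with a median log2 fold change of 0.00 beside 0.01 for all genes, and 0 passed. The smallest p belonged to Tln1, encoding talin 1, which activates integrins (9.31 ± 0.39 against 8.79 ± 0.22 in wild-type lines), the adaptor gene Pxn (8.46 ± 0.16 against 8.87 ± 0.30) and the kinase gene Src (7.97 ± 0.17 against 8.16 ± 0.06; SD, n = 3 lines each, limma adjusted p between 0.854 and 0.898). Of 7 integrin subunits 4 were higher, 2 without constitutively active line 3 and 6 with median scaling, and the 3 with the smallest p were Itga6 (log2 fold change -0.47), Itgb5 (-0.21) and Itgb1 (0.08). Of 15 genes of focal adhesions and their actin linkage 7 were higher, 12 with median scaling of the arrays, and those with the smallest p were Enah, an actin regulator (8.65 ± 0.31 against 9.204 ± 0.37), Vcl, encoding vinculin (9.70 ± 0.41 against 10.16 ± 0.22), and Fermt1, encoding an integrin-binding kindlin (11.29 ± 0.42 against 9.66 ± 2.45). Median scaling raised the median of all genes to 0.21, and 4 integrin subunits and 7 focal adhesion genes then lay above that median. No member of these lists passed.

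The EGF receptor family and genes responsive to STAT3 were examined in the same way. Of 5 tested EGF receptor family members and ligands 4 were higher, with a median log2 fold change of 0.16. In constitutively active lines Egf averaged 8.07 ± 0.14, against 7.91 ± 0.07 in wild-type lines. Hbegf averaged 9.94 ± 0.40 against 10.29 ± 0.61, and Erbb2 9.63 ± 0.24 against 9.47 ± 0.28 (SD over 3 lines, constitutively active against wild-type). Over constitutively active lines 1 to 3 Erbb2 stood at 9.39, 9.88 and 9.63, which is not the order of Tns4. Btc, of the same list, stood at 8.97, 9.65 and 9.92, which is that order. Whether any member follows Tns4 was not tested. Of 13 tested genes responsive to STAT3 8 were higher, with a median of 0.10. All 13 were higher with median scaling, which raised the median of all genes to 0.21, and 8 lay above that median. The 3 with the smallest p were the kinase gene Pim3 (10.62 ± 0.28 against 10.18 ± 0.15), the feedback inhibitor gene Socs3 (8.83 ± 0.48 against 8.04 ± 0.58) and the coactivator gene Bcl3 (7.86 ± 0.24 against 7.02 ± 1.04). None passed (limma adjusted p between 0.854 and 0.9505 for the named genes of these lists). Members of the STAT3 list were not alike over constitutively active lines 1 to 3. Socs3 did not run in the order of Tns4, at 8.80, 9.33 and 8.37. Mcl1 did, at 11.02, 11.07 and 11.29, and so did Fos, at 8.05, 8.70 and 8.76. Whether any member follows Tns4 was not tested. Stat3 itself ran opposite to Tns4 in these lines, at 12.74, 12.27 and 11.50.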

How the data were processed

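The 6 lines were measured on 12 Illumina arrays. The deposited raw table gives, per the file headers, the intensity of each probe, untransformed, together with a detection column. The deposited detection fraction, from 0 to 1, increased with the intensity (Spearman's rho 0.997 to 0.998 on each array), and 1 minus it was taken as the detection p. The authors' deposited series matrix holds log2 values of the same arrays, with column medians of 7.01 to 7.02. The submitters' processing notes list lumi and BeadStudio 3.1.7. How the authors corrected background and normalized is not stated there.

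Signals were background-corrected by detection p with an offset of 16, quantile-normalized and put on a log2 scale with limma 3.58.1 (neqc) in R 4.3.3. The offset understates folds of dim probes. Probes detected (p under 0.01) on both arrays of at least 3 lines were kept (11650), and the brightest kept probe of each of 7306 genes was tested. Genes were named through GEO's platform table, where 29976 probes have 1 symbol, 10 several and 16646 none. Each line entered as the mean of its arrays, and genotypes were compared over 3 lines each by limma's moderated test, two-sided, with Benjamini-Hochberg adjustment over all genes at 0.05. With 3 lines a side, the smallest exact permutation p is 0.1. Differences between lines used all 12 arrays, with the arrays of a line as the residual. Lower bounds divide the bright side by the lowest detected signal of each dim array, or by the dim signal where that is higher. The 3 genes, their partner lists and the markers were chosen with earlier results of these data known. Named genes are the tensins, Stat3, the 8 genes most like and 4 most opposite to each tested tensin, those sharing the detection pattern of Tns4, 5 tested neighbours on each side, and the 3 members of each list with the smallest p; markers and the largest folds were added. The fits were tested on simulated data.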

Additional observations from a re-analysis of the deposited data

How the results depend on the processing

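Tns4 was higher in constitutively active lines and short of the adjusted threshold under each alternative run: its log2 difference was 3.67, and it ran from 2.29 with the deposited log2 values to 3.76 with median scaling, from 2.03 to 4.87 when 1 line was left out, and from 3.59 to 3.75 without 1 replicate array of each line (limma adjusted p between 0.0744, with the 12 arrays taken as independent, and 0.999). It has no value among probes detected on all 12 arrays. For Tns3 (0.10) leaving out 1 line gave -0.0352 to 0.34, with the sign turned without constitutively active line 1 (-0.0352), wild-type line 1 (-0.03) or wild-type line 3 (-0.02), and 1 replicate array of each line gave 0.03 to 0.16. Leaving out 1 line gave -0.00923 (without wild-type line 3) to 0.167 for Tns3 probe ILMN_1229466, -0.803 to 0.467 (without constitutively active line 3) for Tns3 probe ILMN_2491469, and -1.08 to 0.0319 (without wild-type line 2) for Tns1 probe ILMN_1229315. Genes called between genotypes numbered 0, but 1 with every kept probe, 156 with the 12 arrays taken as independent and 0 to 2 leaving out 1 line (2 without wild-type line 2). Median scaling moved the median log2 difference of all genes to 0.21 in place of 0.01 and put that of Tns3 at 0.34. With it the Tns3 ranges among lines did not pass, though the range itself did not shrink among constitutively active lines. It was 0.45 in place of 0.42 there (limma F test, adjusted p = 0.232). Among wild-type lines it was 0.52 in place of 0.74 (limma F test, adjusted p = 0.118). Of 15 pairs 3 passed in place of 8. The pairs of lines that passed for Tns4 numbered 12 to 15. At a detection p of 0.05 the probes seen on all wild-type and no constitutively active arrays numbered 22 in place of 5. Integrin subunits higher were 2 in place of 4 without constitutively active line 3, and median scaling put 12 in place of 7 focal adhesion genes and 13 in place of 8 STAT3 responsive genes higher; both alternatives were chosen after seeing the data. Counted against the median of all genes under median scaling, 7 focal adhesion genes and 8 STAT3 responsive genes were higher. The cause of these shifts was not tested.

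No pairing of arrays by replicate number was seen across all lines. Deviations of replicate 1 from the line mean correlated at -0.26 to 0.31 between lines (median -0.05), over 0.1 in 2 of 15 pairs of lines. Because the numbers may be arbitrary within a line, this check cannot exclude an effect shared by some arrays. With the replicate number as a block, the limma adjusted p was 0.850 for Tns4 and 0.977 for Tns3 between genotypes, 15 pairs of lines passed for Tns4 and 8 for Tns3, and no call changed. Signals near background limit Tns4 in wild-type lines and Tns1 in all lines, wild-type line 2 included, where its detection depended on the threshold.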
